A study of Rattus norvegicus with 36 samples.

Results

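Trim A and Plus A are isomiRs of miR-125b, variants of this microRNA that differ from it at the 3′ end. Trim A lacks the last A, and Plus A carries an additional A. The 3 Hypoxia Trim A libraries were compared with the 3 Hypoxia Plus A libraries. They were chosen by the mimic and oxygen state in the labels and are 6 of the 36 libraries of the series. All cells were H9C2, a dividing line of rat cardiac myoblasts. Each group received a mimic at 25 nmol/L a day before the oxygen state was set. Hypoxic cells were kept for a day in serum-free low-glucose medium and normoxic cells in fresh standard medium, so the effects of oxygen and of the medium cannot be told apart. Hypoxia MC (a mimic control) and Hypoxia miR-125b, with 3 libraries each, give the level of a gene without an isomiR. The 3 Normoxia Trim A and 3 Normoxia Plus A libraries give the same pair of mimics at normal oxygen. The labels do not say whether the replicates were separate cultures, so p-values measure only the spread between these libraries, which may be technical.

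A microRNA is carried by an Argonaute protein and finds its mRNAs mainly through its seed near the 5′ end. TNRC6 proteins then bring in the enzymes that shorten the poly-A tail, and the mRNA is translated less or decays. The 3′ end is outside the seed, and bases are added and removed there by tailing and trimming enzymes. miR-125b is abundant in muscle and heart and is known for repressing genes of apoptosis and differentiation. The sequences are shown because they hold the designed difference between the groups, with the seed (bases 2 to 8) in capitals and written 5′ to 3′.
Trim A: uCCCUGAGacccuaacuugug
miR-125b: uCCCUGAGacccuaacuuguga
Plus A: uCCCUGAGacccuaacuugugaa
In the labels Trim A is called Trim 1 and Plus A is called A, and the bases removed or added are those of the study's methods. The miR-125b sequence is the RefSeq mature rno-miR-125b-5p. The place used here lies on the plus strand of the rat assembly GRCr8 at chr11:29732588-29732609, and the study names a further locus on another chromosome. Both isomiRs were derived from this sequence by that base. The mimics were thus 21, 22 and 23 bases long with the same seed.

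Total counts per library were 29656730 to 30908069 for Hypoxia Plus A and 31064299 to 34505938 for Hypoxia Trim A, and 28361216 to 42672584 over the 33 libraries with counts. Levels of genes are given in CPM, counts scaled to the same library total with TMM factors and not to gene length, so they compare libraries and not genes. Replicate 1 of Hypoxia Trim A stood apart from replicates 2 and 3, with a chi-square per gene of 73.8 and 57.4 against them and of 7.75 between these 2. It was 5.57 to 16.8 among the Plus A libraries. Genes of the mitochondrial chromosome took 3.41, 5.01 and 4.47% of the counts in Trim A replicates 1 to 3 and 3.83, 3.39 and 3.25% in Plus A. Ribosomal protein genes took 3.51, 4.96 and 4.73% in Trim A and 3.24, 3.48 and 3.68% in Plus A. The plot of both shares puts Trim A replicate 1 with the Plus A, miR-125b and MC libraries. Replicate 1 of Trim AG and of Trim AGU lies there too. Trim A replicates 2 and 3 lie with replicates 2 and 3 of Trim AG and Trim AGU, where no Plus A library lies. The labels name no batch, and the part of this split in the isomiR differences was not tested. Over all genes tested, the root mean square log2 difference of Trim A replicate 1 was 0.426 to 0.467 from the Plus A libraries. It was 0.496 and 0.486 from Trim A replicates 2 and 3, so this library was nearer to Plus A than to its own group. H9C2 markers were present, with Vim at 1368 to 1676 FPKM (fragments per kilobase of gene and library total) and the myoblast cadherin Cdh15 at 102 to 149 FPKM. The muscle intermediate filament Des was at 0.387 to 0.630 FPKM and the cardiac factor Nkx2-5 at 0.166 to 0.480 FPKM. None of the listed epithelial, endothelial or immune markers reached 1 FPKM in any of the 6 libraries. Their summed levels were 0.0447 to 0.0820, 0.275 to 0.426 and 1.24 to 1.43 FPKM in Plus A and 0.124 to 0.231, 0.383 to 0.445 and 0.967 to 1.40 FPKM in Trim A, and Emcn was at 0 in all 6.

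**Figure D1:**
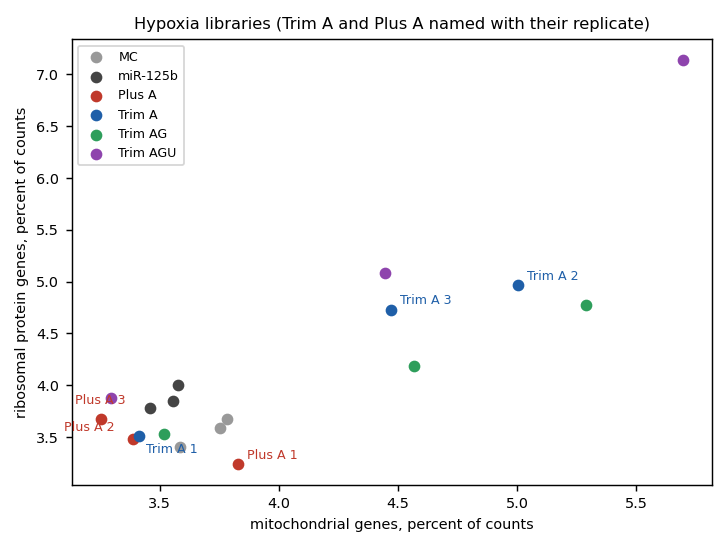
Share of counts taken by mitochondrial genes (x axis, percent) and by ribosomal protein genes (y axis, percent) in each of the 18 hypoxia libraries, coloured by mimic. Trim A replicate 1 lies at 3.41 and 3.51%, beside the Plus A libraries, and replicates 2 and 3 lie above 4.4% on both axes.

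The library labelled Normoxia Plus A replicate 1 did not have the levels of replicates 2 and 3. Cav1 was at 273, 102 and 103 CPM in Normoxia Plus A replicates 1 to 3 and at 106, 288 and 269 CPM in Normoxia miR-125b replicates 1 to 3. Usp15 was at 23.8, 48.3 and 51.3 CPM and at 47.5, 25.9 and 24.9 CPM. Tpm3 and Dstn, like Cav1 and Usp15 chosen for this after their values were seen, had the same arrangement, with 527, 337 and 340 CPM against 340, 530 and 535 CPM and 505, 302 and 314 CPM against 321, 556 and 523 CPM. Values in normoxia are therefore given as labelled and without the library labelled Normoxia Plus A replicate 1.

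In hypoxia, 273 of 15104 genes tested were up-regulated in Trim A relative to Plus A (1.81%) and 85 were down-regulated (0.563%). Calls required a Benjamini-Hochberg adjusted p below 0.05 in the edgeR quasi-likelihood test together with a change of 1.5-fold or more, which 358 genes met (2.37%), and 657 genes met the first of these (4.35%). The changes were moderate, with a median of 1.80-fold among the up-regulated and 1.81-fold among the down-regulated genes, and 80 and 26 of them reached 2-fold. The libraries of the 2 groups did not overlap for any of the called genes, which was so for 29.2% of all genes tested. The up-regulated genes made up 76.3% of the calls, and 63.1% with DESeq2 and its size factors (369 up, 216 down). Without Trim A replicate 1 the calls were 641 up (4.17%) and 757 down (4.93%). Without any 1 of the other 5 libraries they were 127 to 182 up and 9 to 23 down. Of the 49 named genes that were up-regulated, 32 kept the call without each of the 6 libraries in turn, as did 5 of the 22 that were down-regulated. The sign changed for none of these 49 and 22 genes.

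**Figure D2:**
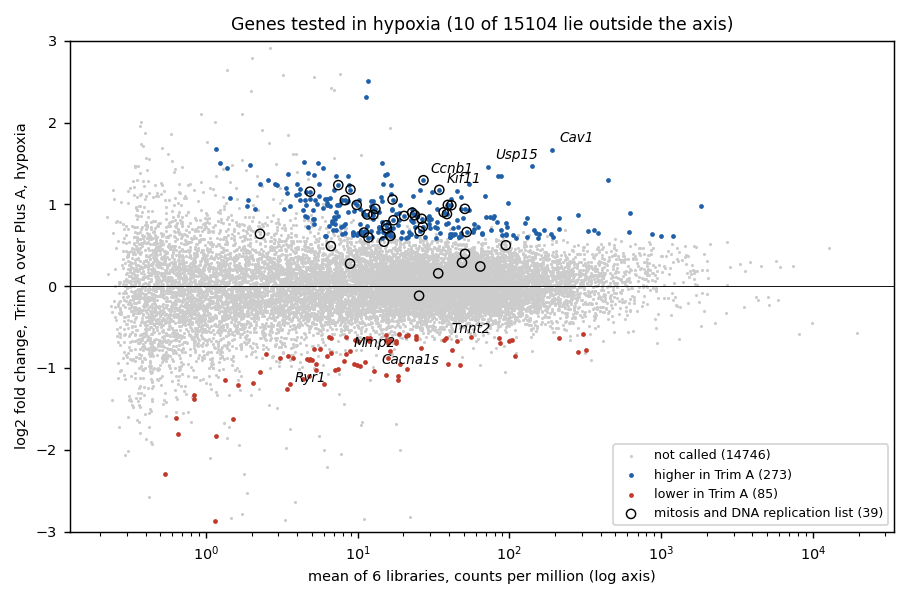
Log2 fold change of Trim A over Plus A in hypoxia (y axis) against the mean level of each gene in the 6 libraries (x axis, CPM, log axis), for 15104 genes, of which 10 lie outside the plotted range. Up-regulated genes are blue, down-regulated genes red, and the 39 tested genes of the mitosis and DNA replication list are circled, nearly all above 0.

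The gene with the lowest p was Cav1, which codes for caveolin-1, the scaffold protein of the plasma membrane pits called caveolae. Its identifier is ENSRNOG00000056836. The files place it on chromosome 4 from 44597123 to 44630200 on the plus strand, of a genome build that is not given in the sources used here. Its level was 94.8, 89.9 and 90.8 CPM in the Plus A libraries and 263, 310 and 304 CPM in Trim A. The Plus A libraries were the low ones, since miR-125b was at 233, 239 and 235 CPM and MC at 243, 257 and 244 CPM. The difference was 3.18-fold (log2 fold change 1.67 ± 0.09 SE, adjusted p = 0.000224 with edgeR, n = 3 per group). Of the 10 tested genes of the caveolae list, Cav1 was the one that was up-regulated and none was down-regulated, and the median log2 fold change was 0.05 (0.0007 over all genes tested).

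Usp15 codes for a deubiquitinase of the ubiquitin system, and it was at 42.1, 40.3 and 33.0 CPM in Plus A and 94.5, 116 and 108 CPM in Trim A. miR-125b was lower than both, at 18.4, 18.3 and 18.5 CPM, and MC lay between them at 63.4, 67.4 and 66.8 CPM. The difference was 2.75-fold (log2 fold change 1.46 ± 0.12, adjusted p = 0.000682 with edgeR), and Trim A was the highest of these 4 groups with no overlap. Usp15 is on chromosome 7 from 66595742 to 66687278 in the files.

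Another set of genes was lowest in Plus A, as Cav1 was. Cse1l, the export receptor that recycles importin alpha, was at 49.4, 49.1 and 44.1 CPM in Plus A and at 107, 135 and 120 CPM in Trim A, with 80.1 to 80.9 CPM in miR-125b and 91.8 to 97.2 CPM in MC. C1galt1, the core 1 O-glycan synthase, was at 32.3, 28.7 and 30.2 CPM in Plus A and at 65.0, 64.0 and 65.6 CPM in Trim A. Its level was 47.8 to 51.4 CPM in miR-125b and 66.7 to 72.1 CPM in MC. Gpd1l, a glycerol-3-phosphate dehydrogenase-like protein, was at 8.51, 9.14 and 8.49 CPM in Plus A and at 23.2, 22.7 and 21.8 CPM in Trim A, beside 19.5 to 22.9 CPM in miR-125b and MC. Zc3h15, a zinc finger protein, was at 51.8, 47.9 and 48.6 CPM in Plus A and at 108, 136 and 133 CPM in Trim A. The translation initiation factor gene Eif3j was, like Cse1l, both lowest in Plus A, at 77.5, 68.9 and 75.9 CPM, and highest in Trim A, at 174, 227 and 215 CPM, with 115 to 129 CPM in miR-125b and MC. The log2 fold changes of these 5 genes were 1.09 to 1.47 with adjusted p-values of 0.000564 to 0.000600 in edgeR, and each kept its call without any 1 of the 6 libraries.

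**Figure D3:**
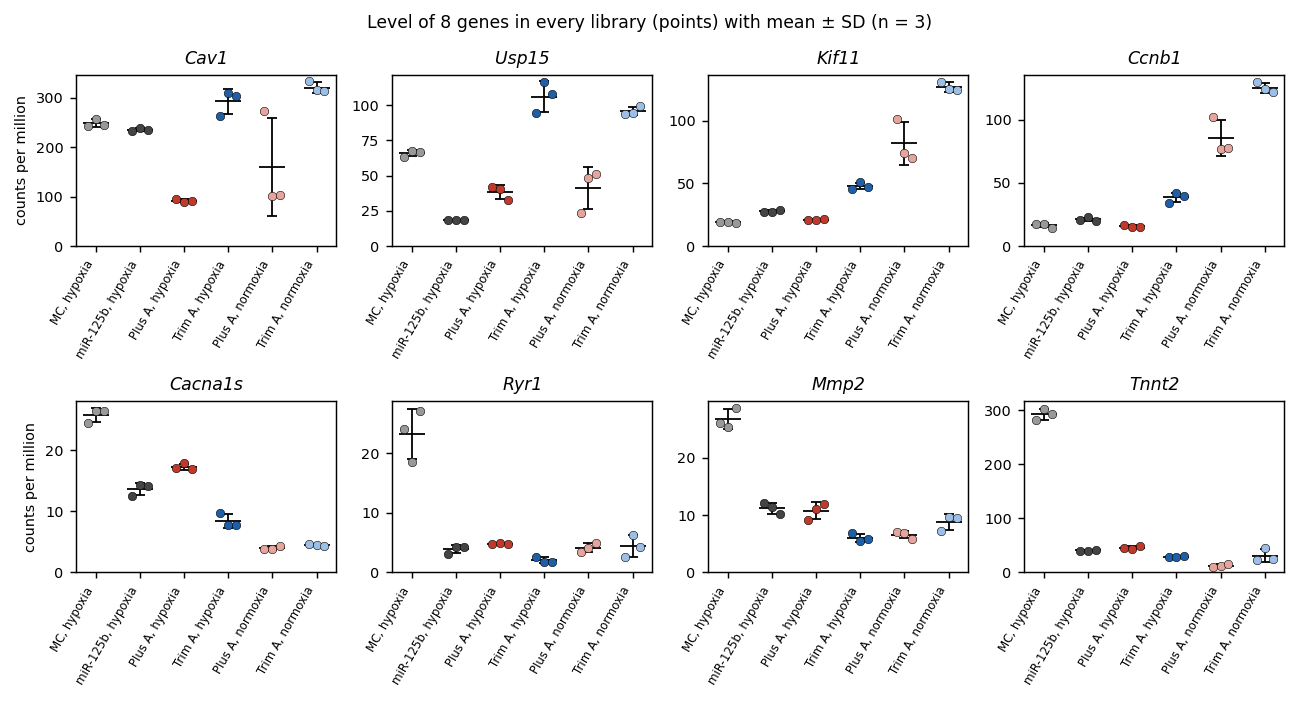
Level of 8 genes (y axis, CPM, from 0) in every library of 6 groups (points), with the mean and SD of 3 libraries (bar and whiskers). Cav1 is low in the 3 hypoxia Plus A libraries (89.9 to 94.8), Kif11 and Ccnb1 are highest in Trim A among the hypoxia groups and the 4 genes of the lower row lowest in it, and the Normoxia Plus A replicate 1 library is apart from replicates 2 and 3 for Cav1, Usp15, Kif11 and Ccnb1.

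Of all lists, that of mitosis and DNA replication had the most called genes. The lists were chosen with earlier results of these data known, so this count is a description and no independent test. Progress from DNA replication to mitosis needs the MCM helicase that unwinds DNA, the cyclin-dependent kinase Cdk1 with its cyclins, and kinesins and checkpoint kinases that build and control the spindle, and these genes are expressed mainly in cycling cells. Of the 39 tested genes of the mitosis and DNA replication list (of 40 listed), 29 were up-regulated in Trim A and none was down-regulated, beside 1.81% of all genes. The median log2 fold change was 0.82 (0.0007 over all genes tested). Of the 39 values 38 were positive, and the groups did not overlap for 38 of them (29.2% of all genes). In bulk RNA a larger share of dividing cells and more of these mRNAs per dividing cell cannot be told apart.

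Among the spindle genes, Kif11, the kinesin that pushes the spindle poles apart, was at 21.1, 21.0 and 21.4 CPM in Plus A and 45.4, 50.7 and 47.5 CPM in Trim A, a 2.26-fold difference (log2 fold change 1.18 ± 0.08, adjusted p = 0.000564 with edgeR). The spindle assembly factor gene Tpx2 was at 28.4, 27.6 and 27.2 CPM against 50.3, 57.8 and 57.3 CPM (log2 fold change 0.99 ± 0.08). Cenpf, a kinetochore protein gene, was at 28.4, 25.7 and 23.0 CPM against 45.6, 49.3 and 49.2 CPM (0.90 ± 0.10). In each of them all 3 Trim A libraries were above all Plus A, miR-125b and MC libraries. Other mitotic kinases and checkpoint genes (Aurka, Aurkb, Plk1, Bub1, Bub1b, Ttk) were up-regulated with log2 fold changes of 0.82 to 1.05.

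Among the cyclins and their partners, Ccnb1 (cyclin B1) was at 16.5, 15.4 and 15.2 CPM in Plus A and 34.5, 41.7 and 39.5 CPM in Trim A, a 2.45-fold difference (log2 fold change 1.30 ± 0.10, adjusted p = 0.000600 with edgeR). This was the largest of the list. MC was at 14.6 to 17.8 CPM and miR-125b at 20.0 to 22.7 CPM, so Plus A overlapped with MC. Cdk1, the kinase that cyclin B1 activates, was at 26.1, 28.5 and 27.1 CPM against 43.2, 56.4 and 51.1 CPM (0.88 ± 0.10). Ccna2 (cyclin A2) had a log2 fold change of 1.06 ± 0.11, but it overlaps Exosc9 on the other strand, and these libraries were not stranded. Kif20a likewise overlaps Cdc23 (0.66 ± 0.10). Ccne1 and Ccne2, the E cyclins that act at the start of S phase, did not pass the test, with log2 fold changes of -0.12 (95% confidence interval -0.31 to 0.08) and 0.28 (-0.02 to 0.57).

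The proliferation marker Mki67 was at 36.9, 32.6 and 34.8 CPM in Plus A and 74.9, 66.8 and 59.2 CPM in Trim A (log2 fold change 0.95 ± 0.10). Top2a, the topoisomerase that untangles replicated chromosomes, was at 31.0, 22.3 and 25.5 CPM against 51.9, 52.3 and 52.7 CPM (0.99 ± 0.12). Of the MCM genes, Mcm3, Mcm5 and Mcm6 were up-regulated by 0.95, 0.61 and 0.87 on the log2 scale. Mcm2, Mcm4 and Mcm7 were at 0.16 (95% confidence interval -0.03 to 0.34), 0.40 (0.19 to 0.60) and 0.29 (0.12 to 0.45) and were not called. Outside the list, the fixed rule named Ube2t, Gins3, Mzt1, Cenph and Clspn, which act in DNA repair, replication or on the spindle, with log2 fold changes of 1.45, 1.39, 1.51, 1.51 and 1.68. The first 3 of them kept their call without any 1 library. Cenph kept it in 4 of 6 leave-outs (adjusted p = 0.0611 without Plus A replicate 3) and Clspn in 1 of 6 (0.130 without Trim A replicate 2).

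The count of the list was 31 of 39 without Trim A replicate 1 and 26 of 39 without replicate 2 or 3. It was 26, 18 and 20 of 39 without Plus A replicate 1, 2 or 3. The median log2 fold change was between 0.79 and 0.85 in these 6 fits. In all, 18 members kept the call in each of the 6 leave-outs, and the other 11 lost it in at least 1. These were Pola1, Mcm3, Mcm5, Cdt1, Cdc45, Rrm2, Kif20a, Kif23, Cdca8, Cenpe and Cep55, of which Pola1 lost it in 5 (adjusted p = 0.144 without Plus A replicate 2). The part of the mitochondrial and ribosomal protein shares in these differences was not tested. The list had the same count of 29 without the mitochondrial genes. That fit drops only those genes, with 15079 genes tested, and keeps all libraries, so it is no test of the shares. Trim A replicate 1 had shares in the range of Plus A. It is 1 of the libraries behind the lack of overlap given above for 38 of the 39 genes, so its levels add no test of the shares.

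Promoters of these genes were looked at for the motifs through which cell cycle genes are known to be repressed outside the cycle and activated within it. The cell cycle homology region was searched as TTTGAA and the CCAAT box as CCAAT, on both strands of the 300 bases of each RefSeq promoter of GRCr8 around the gene start. Adjacent matches of the motifs can share 1 base. TTTGAA was present in 12 of the 25 up-regulated members of the list that had a promoter (48.0%) and in 14 of 32 tested members (43.8%). It was present in 18.1% of all 27457 promoters and in 11.8% of those of genes tested in hypoxia, of which 68.1% matched a promoter. CCAAT was present in 20 of the 25 (80.0%), in 24 of 32 tested members (75.0%), in 37.7% of all promoters and in 37.5% of those of genes tested. TTTGAA was present in 32.0% of the matched promoters of all up-regulated genes and in 8.16% of those of all down-regulated genes. Since only 74.1% and 61.3% of these symbols matched, and 68.1% of the tested ones, comparisons with these 3 sets are void. The list was made of cell cycle genes, which are known to use these motifs. Its excess over all promoters therefore says nothing about Trim A against Plus A. For both motifs its up-regulated members had shares near those of its tested members. Windows of 26 bases with the motif in capitals are shown for 6 of the 12 genes, to make its setting near the gene start visible. A match is a description and not a binding site.
Cenpf: ccgcgggcagTTTGAAtcgctcgtgc
Mki67: gccgttttcgTTTGAAttgggcgggc
Cdk1: ccgcggtgagTTTGAAactgctggca
Bub1b: agacgttaaaTTTGAAagttggcggc
Birc5: gcccgcgggtTTTGAAttagggattg
Plk1: cagcgctgcgTTTGAAttcggggagg
In this order they lie at chr13:103760869-103760894 and chr1:199952677-199952702 of GRCr8 on the minus strand. The others lie at chr20:19265267-19265292, chr3:126017053-126017078, chr10:103572128-103572153 and chr1:186147654-186147679 on the plus strand. Mki67 and Cdk1 hold the motif at a further place in the promoter, and the place nearer to the gene start is shown.

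**Figure D4:**
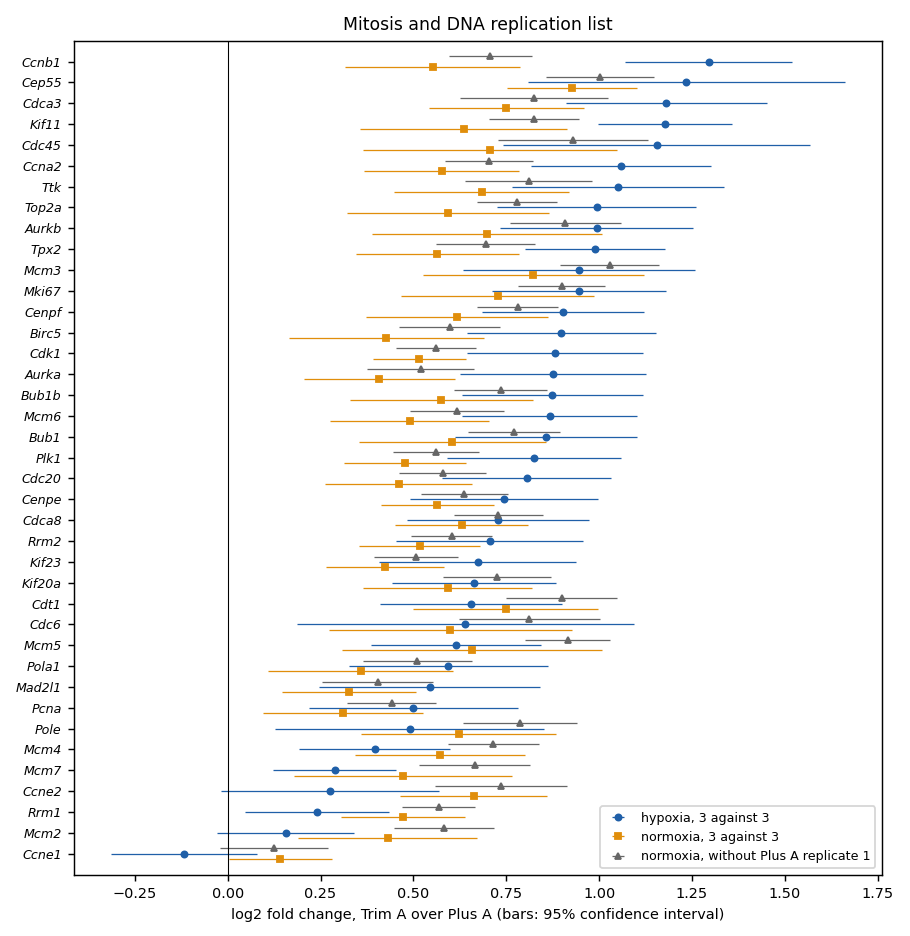
Log2 fold change of Trim A over Plus A (x axis, with 95% confidence intervals) for the 39 tested genes of the mitosis and DNA replication list, in hypoxia (circles), in normoxia (squares) and in normoxia without Plus A replicate 1 (triangles). In hypoxia 38 of 39 points lie above 0, with Ccnb1 highest at 1.30 and Ccne1 below 0.

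The down-regulated genes included several of the contractile apparatus and its calcium supply, but calls of such genes went both ways. The tropomyosin gene Tpm3 was up-regulated, at 200, 197 and 200 CPM in Plus A and 358, 373 and 363 CPM in Trim A. The calponin gene Cnn1, given below, was up-regulated too. Tnnt2 codes for cardiac troponin T, a protein of the thin filament, and was at 44.8, 43.3 and 48.8 CPM in Plus A and 28.8, 27.9 and 29.8 CPM in Trim A, a 1.58-fold difference (log2 fold change -0.66 ± 0.08, adjusted p = 0.00360 with edgeR). None of the 4 hypoxia groups overlapped, with miR-125b at 39.9 to 42.1 CPM and MC far higher at 282, 303 and 293 CPM. Cacna1s, the voltage sensor of excitation-contraction coupling, was at 17.1, 17.9 and 16.9 CPM in Plus A and 9.73, 7.75 and 7.73 CPM in Trim A (-1.04 ± 0.12, adjusted p = 0.00332), with 12.6 to 14.3 CPM in miR-125b and 24.5 to 26.5 CPM in MC. Ryr1, the calcium release channel of the sarcoplasmic reticulum, was at 4.87, 4.97 and 4.73 CPM against 2.61, 1.74 and 1.75 CPM (-1.25 ± 0.20, adjusted p = 0.0118). Tnnt2 and Cacna1s kept their call without any 1 library and Ryr1 in 2 of 6 leave-outs (adjusted p = 0.0601 without Plus A replicate 2).

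Of the 31 tested genes of the sarcomere and muscle differentiation list, Ryr1 and Tnnt2 were down-regulated and none was up-regulated, beside 0.563% of all genes, with 22 negative values and a median log2 fold change of -0.20. Without Trim A replicate 1 it was 5 of 31, beside 4.93% of all genes in that fit, with a median of -0.30. Embryonic myosin Myh3 and nebulin (Neb) had log2 fold changes of -1.15 and -0.87 with adjusted p-values of 0.0559 and 0.0592. Myog, the differentiation factor myogenin, had a log2 fold change of -0.50 (95% confidence interval -0.67 to -0.33, adjusted p = 0.00897), under the 1.5-fold threshold. Myom2, a protein of the sarcomere's M band, and Unc45b, a myosin chaperone, were down-regulated too, with log2 fold changes of -1.19 and -1.21. They kept their call in 2 and 1 of 6 leave-outs (highest adjusted p 0.0958 without Plus A replicate 2 and 0.170 without Plus A replicate 1).

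Of the 37 tested genes of the collagens and matrix list, Mmp2 and Mmp14 were down-regulated (0.563% of all genes) and none was up-regulated. Both code for metalloproteinases, and the membrane-bound product of Mmp14 activates that of Mmp2. Mmp2 was at 9.15, 11.1 and 12 CPM in Plus A and 6.87, 5.51 and 5.81 CPM in Trim A (log2 fold change -0.83 ± 0.15, adjusted p = 0.0208). Mmp14 was at 355, 366 and 358 CPM against 273, 166 and 176 CPM (-0.81 ± 0.17, adjusted p = 0.0363), so Trim A replicate 1 was nearer to Plus A than replicates 2 and 3 were. The same was so for the related Mmp15, at 24.7, 24.5 and 26.6 CPM against 15.8, 9.24 and 9.23 CPM, and for the matrix protein gene Olfml2b, at 23.4, 26.6 and 25.7 CPM against 17.7, 7.84 and 9.65 CPM. Mmp2 and Mmp15 kept their call in 2 of 6 leave-outs, with a highest adjusted p of 0.103 (without Plus A replicate 2) and 0.0732 (without Plus A replicate 1). Mmp14 and Olfml2b kept it in 1 of 6, with 0.139 and 0.176, both without Trim A replicate 3. The median of the list was -0.25, with 29 negative values, and without Trim A replicate 1 it was -0.43 with 14 of 37 down-regulated (4.93% of all genes in that fit).

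Fibin, Mest and Mllt11 were both lowest in Trim A and highest in Plus A among the 4 hypoxia groups. Fibin, a secreted protein gene, was at 13.2, 15.8 and 15.0 CPM in Plus A and 7.71, 7.5 and 7.87 CPM in Trim A (log2 fold change -0.93 ± 0.11). The imprinted gene Mest was at 52.5, 56.6 and 57.6 CPM against 36.3, 33.4 and 35.1 CPM (-0.67 ± 0.08), and Mllt11 at 46.1, 46.3 and 47.6 CPM against 32.9, 28.4 and 28.8 CPM (-0.63 ± 0.09). These 3 genes kept their call without any 1 library. The other named down-regulated genes were Lppr3, Haus1, Mpp2, Pnmal2, Dnah1, Bcam, Pycr1, Ralgds and Rcn3, with log2 fold changes from -1.62 to -0.59. Each lost the call in at least 1 leave-out, and Lppr3 had the highest adjusted p of them (0.169 without Plus A replicate 2).

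The next list holds genes of apoptosis and others through which the study followed miR-125b. Of 14 tested genes, a list the study chose in part on these samples, 1 was down-regulated (Tnnt2) and none was up-regulated, with a median log2 fold change of -0.11. With 0.563% of all genes down-regulated and 2.37% called, a count of 1 in so short a list tells little about it. Bmf, which codes for a pro-apoptotic BH3-only protein, was at 10.9, 13.7 and 10.8 CPM in Plus A and 9.98, 7.10 and 7.96 CPM in Trim A, and at 33.8 to 36.8 CPM in MC. Its log2 fold change was -0.50 (95% confidence interval -0.87 to -0.13, adjusted p = 0.112 with edgeR). Without Trim A replicate 1 it was -0.65 and passed the test (adjusted p = 0.00880). Bak1, an effector that permeabilises mitochondria, had a log2 fold change of 0.17 (-0.06 to 0.39), and its level was 32.2 to 39.5 CPM in Plus A, 39.2 to 43.3 CPM in Trim A and 57.5 to 59.9 CPM in MC. Bcl2l11 (-0.22, -0.48 to 0.03), Bax (0.22, -0.08 to 0.53), Traf6 (-0.15, -0.46 to 0.15) and Hif1an (0.23, -0.02 to 0.47) were not called either. The same was so for Dram2 (0.30, 0.06 to 0.53), Tp53inp1 (0.06, -0.14 to 0.26), Tp53inp2 (-0.13, -0.30 to 0.05) and Casp2 (-0.08, -0.27 to 0.11). For Tnfrsf1b, at 0.254 to 0.467 CPM, and for Klf13 the intervals were wide, from -0.83 to 1.01 and from -0.82 to 0.44, and a difference was not detectable at this depth. Of 22 tested further targets reported for miR-125b, none was called by edgeR (5 at an unadjusted p below 0.05, which 26.1% of all genes reached), the vitamin D receptor gene Vdr was down-regulated by DESeq2, and the median was -0.15. Of 26 tested genes of microRNA processing and silencing, Tnrc6b was down-regulated, at 105, 99.8 and 104 CPM in Plus A and 79.4, 61.4 and 58.1 CPM in Trim A (log2 fold change -0.64 ± 0.12, adjusted p = 0.0223). Its call was kept in 1 of 6 leave-outs (adjusted p = 0.0986 without Plus A replicate 1).

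None of the 15 tested enzymes and cofactors of microRNA 3′ ends was called (edgeR and DESeq2, with 3 at an unadjusted p below 0.05 in edgeR). Among all genes edgeR called 2.37%, and 26.1% had an unadjusted p below 0.05, so these counts tell little about so short a list. The terminal nucleotidyltransferase genes Papd4, Papd5, Zcchc6, Zcchc11, Papd7 and Tut1 had log2 fold changes of 0.33, -0.06, -0.08, -0.26, -0.06 and -0.21. The trimming exonuclease genes Parn, Dis3l2, Eri1, Pnpt1, Xrn2, Exosc3 and Exosc10 were between -0.29 and 0.30. The methyltransferase gene Henmt1, at 0.529 to 1.59 CPM, had an interval from -1.01 to 1.01. Zswim8, the receptor of a ligase that removes Argonaute with its microRNA, was at 9.75, 11.9 and 6.81 CPM in Plus A and 16.0, 4.14 and 3.47 CPM in Trim A, with an interval from -1.44 to 0.89. Without Trim A replicate 1 it had a log2 fold change of -1.32 and was called (adjusted p = 0.00328). These levels are of the mRNAs of the enzymes, and the mimics themselves are not in the count tables used here.

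**Figure D5:**
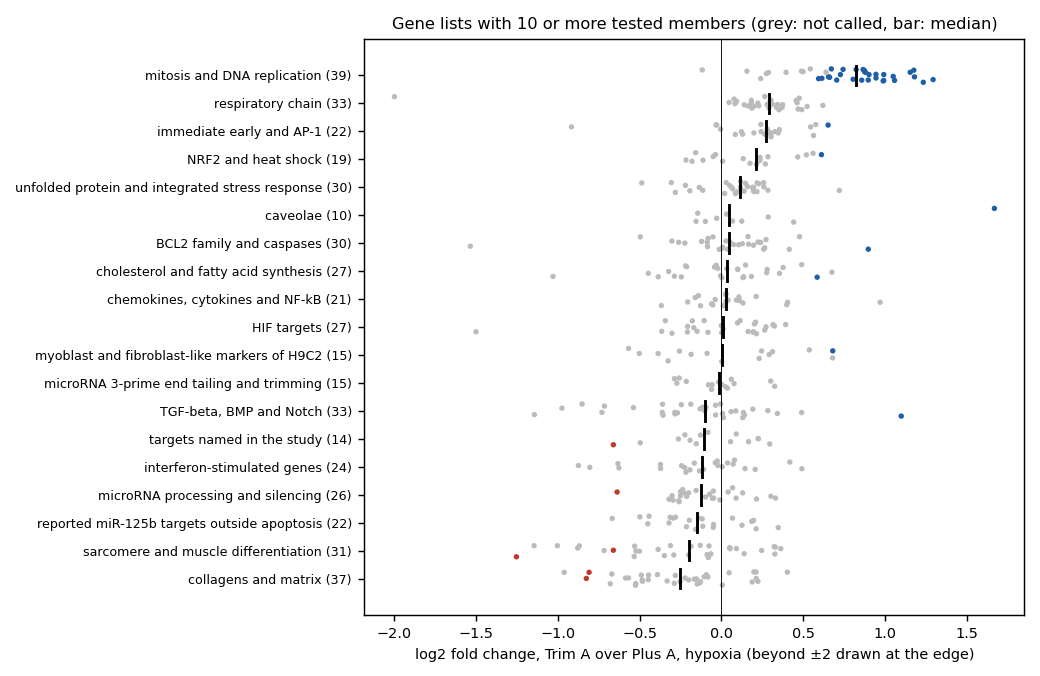
Log2 fold change of Trim A over Plus A in hypoxia (x axis) for the tested members of 19 gene lists with 10 or more of them (number in brackets), with called genes in blue (up) or red (down), the others in grey and the median as a bar. The mitosis and DNA replication list has its median at 0.82 and the others lie between -0.25 and 0.29.

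The counts of the next lists, of 0 called genes each, are near the 2.37% called among all genes, and their shares at an unadjusted p below 0.05 stand beside 26.1% of all genes. The respiratory chain had no called gene in edgeR (19 of 33 at an unadjusted p below 0.05, Cox5b up-regulated by DESeq2). Of its 33 values 32 were positive and the median log2 fold change was 0.29, beside the higher mitochondrial share of Trim A replicates 2 and 3. The negative value was that of Ndufa1 (-3.51, 95% confidence interval -6.34 to -0.69), with mean levels of 3.90 CPM in Plus A and 0.339 CPM in Trim A that overlapped between libraries. The HIF targets, which low oxygen switches on, had no called gene of 27 with edgeR or DESeq2 (10 at an unadjusted p below 0.05), and their median was 0.01. Chemokines, cytokines and NF-kB genes had none of 21 with either tool (1 at an unadjusted p below 0.05). No interferon-stimulated gene of 24 was called in edgeR (7 at an unadjusted p below 0.05), with Isg15, which DESeq2 called, at -0.63 (-1.04 to -0.21). Nor was any gene of 30 of the unfolded protein and integrated stress response (11 at an unadjusted p below 0.05, Sdf2l1 up-regulated by DESeq2).

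Beside the caveolae list, 6 lists had 1 up-regulated gene each and none down-regulated, of 30 (BCL2 family and caspases), 33 (TGF-beta, BMP and Notch), 22 (immediate early), 15 (H9C2 markers), 19 (NRF2 and heat shock) and 27 (cholesterol) tested. This is near the 1.81% of all genes, so the genes are given for themselves. Birc5 (survivin), in the list of BCL2 family and caspases, belongs also to the mitosis list, in which it acts on chromosome segregation. It was at 14, 16.6 and 17.3 CPM in Plus A and 26.4, 31.8 and 31.0 CPM in Trim A (log2 fold change 0.90 ± 0.11). Inhba, the subunit of the TGF-beta family ligand activin A, was at 13.6, 17.0 and 13.8 CPM against 36.6, 28.1 and 30.5 CPM (1.10 ± 0.13), with 38.0 to 44.4 CPM in MC. Klf2, a transcription factor of the early response list, was at 49.9, 48.6 and 56.1 CPM against 82.1, 75.9 and 84.8 CPM (0.65 ± 0.09). The smooth muscle calponin gene Cnn1, 1 of 15 tested H9C2 markers, was at 122, 139 and 128 CPM against 185, 223 and 216 CPM (0.68 ± 0.09). These 4 genes kept their call without any 1 library. Nqo1, a target of NRF2, and Sc5d, of cholesterol synthesis, had log2 fold changes of 0.61 and 0.59 and kept the call in 2 and 1 of 6 leave-outs (adjusted p = 0.0667 and 0.0743 without Plus A replicate 2). The neural list had 3 tested genes and none was called by edgeR (1 at an unadjusted p below 0.05) or DESeq2. Its summed level was 19.4 to 19.5 FPKM in Plus A and 17.0 to 17.6 FPKM in Trim A.

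The values of 3 up-regulated genes named by the rule are uncertain. The identifier ENSRNOG00000047557, 1 of 5 that carry the name Rpl35a, was at 0.0949, 0.0969 and 0.218 CPM in Plus A and 12.9, 15.8 and 27.0 CPM in Trim A, but it was at 18.4, 0.125 and 18 CPM in the miR-125b libraries and 5.06, 15.5 and 0.0650 CPM in MC. The sum over the 5 identifiers was 25.0 to 40.0 CPM in Plus A and 46.8 to 72.1 CPM in Trim A. Fgf2, a growth factor gene, overlaps Nudt6 on the other strand, which was also up-regulated, and reads of the pair cannot be told apart in these libraries. Its call was kept in 2 of 6 leave-outs (adjusted p = 0.108 without Trim A replicate 3). Tspan4, a tetraspanin gene, was at 3.13, 3.97 and 3.36 CPM in Plus A and 28.6, 23.5 and 7.51 CPM in Trim A, and ranged from 5.98 to 46.7 CPM among the MC libraries. It kept the call in 3 of 6 leave-outs (adjusted p = 0.0940 without Plus A replicate 1).

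The called genes were also set beside the other hypoxia groups. Of the 273 up-regulated genes, 148 were highest in Trim A and 133 lowest in Plus A, without overlap with the libraries of the other 3 groups. Both were so for 44 of them and neither for 36. Among all genes tested, which were not chosen for a difference between the isomiRs, Trim A was highest in 4.48% and Plus A lowest in 4.42%. Of the 29 up-regulated mitosis and replication genes 23 were highest in Trim A and 11 lowest in Plus A, with 6 in both counts. Of the 85 down-regulated genes, 57 were lowest in Trim A and 19 highest in Plus A, with 3 in both counts and 12 in neither (4.78% and 3.62% of all genes). The mean level of miR-125b lay between those of the isomiRs for 258 of the 273 and for 70 of the 85. It was nearer to Plus A in 64 of the down-regulated genes and nearer to Trim A in 21. For the up-regulated genes it was nearer to Trim A in 148 and nearer to Plus A in 125. These genes were chosen for a gap between the isomiRs, which by itself favours a level of miR-125b between them. The same counts were not made over all genes tested, so they show no order by length.

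The same pair of mimics was compared in normoxia, with no library in common. As labelled, 176 of 14739 genes were up-regulated (1.19%) and 43 down-regulated (0.292%), with 5.92% at an adjusted p below 0.05 whatever the fold. Without the library labelled Normoxia Plus A replicate 1 they were 455 of 14970 (3.04%) and 138 (0.922%). These counts are conditioned on the levels for which that library was doubted. Without any 1 of the other 5 libraries the counts were 27 to 42 up and 8 to 11 down.

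Most up-regulated genes of hypoxia had the same sign in normoxia, with 254 of 272 as labelled and 260 of 273 without the doubtful library, and 77 and 168 were up-regulated there too. Over all genes tested in both the sign was the same for 52.2% of 14461 as labelled and 52.0% of 14584 without the library. The 77 were 28.2% of the hypoxia calls and 43.8% of the normoxia calls, and the 168 were 61.5% and 36.9%. Cav1 had a log2 fold change in normoxia of 1.01 (adjusted p = 0.101) as labelled and 1.65 without the library, a value that is no test, since Cav1 is among the genes for which the library was doubted. Of the mitosis and replication list, 18 of 39 were up-regulated as labelled (median 0.57), beside 1.19% of all genes. Without the library 28 of 39 were up-regulated (median 0.72), beside 3.04% of all genes. None of the 39 was down-regulated, and all 39 values were positive. The count as labelled was 4 or 5 of 39 without any 1 of the other 5 libraries. Ccnb1 was at 102, 76.9 and 77.6 CPM in Normoxia Plus A and 130, 124 and 122 CPM in Normoxia Trim A (log2 fold change 0.55 as labelled, 0.71 without the library), so its level was far above that in hypoxia in both groups. The interaction of oxygen and isomiR for Ccnb1 was 0.74 (95% confidence interval 0.42 to 1.07) with an adjusted p of 0.0557.

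Of the down-regulated genes of hypoxia, 5 of 85 were down-regulated in normoxia as labelled (5.88% of the hypoxia calls, 11.6% of the normoxia calls) and 8 without the library (9.41% and 5.80%). The sign was the same in 50 and 52 of 85. Among the 5 as labelled were Fibin, Catip, Sulf2 and Igsf9, named after their values were seen. Called in opposite directions were 3 genes, Tnnt2, Olfml2b and 1 locus without a name. Tnnt2 was at 9.88, 12.5 and 15.9 CPM in Normoxia Plus A and 23.8, 45.4 and 24.9 CPM in Normoxia Trim A, up-regulated by 1.31 on the log2 scale (adjusted p = 0.0232), against -0.66 in hypoxia. In normoxia 7 of 37 genes of the collagens and matrix list were up-regulated (11 without the library), among them Tnc (1.01), Postn (0.83), Col1a2 (0.66) and Lum (1.28), and none was down-regulated. Of the sarcomere list 2 of 31 were up-regulated, Tnnt2 and Tnnt1 (0.71). The shares of all genes up-regulated in normoxia were 1.19% as labelled and 3.04% without the library. Over all genes the interaction, a test of whether the difference between the isomiRs differed between hypoxia and normoxia, was called for 22 of 15559 genes (0.141%), with 18 lower (0.116%) and 4 higher (0.0257%) in hypoxia. Without the library labelled Normoxia Plus A replicate 1 it was 11 (0.0695%) and 2 (0.0126%), and without Hypoxia Trim A replicate 1 it was 784 and 684. Other fits changed the counts and their balance, to 228 lower and 246 higher with DESeq2, 126 and 171 without the filter and 74 and 156 with a replicate block.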

How the data were processed

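Total mRNA of H9C2 cells was sequenced from poly-A selected, non-stranded libraries. The deposited tables give raw read counts per gene, which the authors made by aligning reads and counting them per gene, and FPKM values, which the authors scaled by gene length and library total. The submitters' processing notes name HISAT2 and StringTie, and the genome build is not given in the sources used here. Columns of the authors' own comparisons (fold changes and p-values) were not used. Tables were joined on the gene identifier, giving 24275 genes in 33 libraries with counts, and groups were taken from the sample labels.

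Counts were tested with edgeR 4.0.16 in R 4.3.3 (TMM scaling, filterByExpr, quasi-likelihood test, Benjamini-Hochberg adjustment over all genes tested), separately for the hypoxia libraries, for the normoxia libraries and for their interaction. SE and 95% confidence intervals are those of the fitted log2 fold change. CPM values used TMM factors over the 33 libraries, and a level in CPM is not scaled by gene length. FPKM was used only for the markers. Procedures were tested on simulated data. Named genes were the called genes with the largest changes at a mean of 1 CPM or more and without overlap (up to 12 per direction), those with the lowest p at 10 CPM or more (up to 8 per direction), called members of the lists, all tested members of the miR-125b target list of the study and of the microRNA 3′-end list, and Cav1. Other genes were named after their values were seen. Some genes and a gene list are not reported here. All lists with their members, reported or not, and Cav1 were chosen with earlier results of these data known. Alternatives were DESeq2 1.42.0, no filter, other fold thresholds, a replicate block, wider fits, and leaving out each library. Leaving out the mitochondrial genes, and counting list members without single libraries, were chosen after seeing the data. Tables and figures were made with Python 3.11.15, pandas 2.3.3, numpy 2.4.6 and matplotlib 3.10.9. Intervals cover the spread between libraries only.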

Additional observations from a re-analysis of the deposited data

Results flagged for a closer look

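The isomiR difference (Trim A minus Plus A, log2) differed between hypoxia and normoxia for 18 named genes by the interaction test of edgeR, with adjusted p-values of 0.0223 to 0.0490. Without the library labelled Normoxia Plus A replicate 1 the adjusted p-values of these genes were 0.0493 to 0.0647, and no gene was called without Hypoxia Plus A replicate 1 or 2 or Hypoxia Trim A replicate 2 or 3. The isomiR difference was called lower in hypoxia for 3 of 37 tested genes of the collagens and matrix list. For the sarcomere list it was 2 of 34, beside 0.116% of all genes. These 5 are Tnc, Postn, Mmp2, Tnnt2 and Myog. The isomiR difference, and not the level itself, was lower in hypoxia than in normoxia for 14 named genes, given here by their interaction. Tnnt2 had an interaction of -1.96, from -0.66 in hypoxia and 1.31 in normoxia, and Cacna1s one of -1.20, from -1.04 and 0.17. Myog had -1.02 and Hfe2 (hemojuvelin, an iron regulator of muscle and liver) -2.46. Tnc had -1.53, Postn -1.03, Mmp2 -1.26, Olfml2b -2.02, Abi3bp -1.42, Itga4 -1.10, Nrp1 -0.88 and Ext1 -0.60. Rsrp1 had -0.75 and the adenosine receptor gene Adora1 -1.08. Postn, Tnc, Abi3bp, Ext1, Itga4 and Nrp1 had an adjusted p above 0.05 in hypoxia and below it in normoxia (edgeR). Postn, Tnc and Abi3bp had log2 fold changes of -0.20, -0.53 and -0.26 in hypoxia and 0.83, 1.01 and 1.15 in normoxia. The other genes of the 14 had an adjusted p below 0.05 in hypoxia. The isomiR difference was higher in hypoxia for 4 genes, with Hmox1 (heme oxygenase) at 0.82, Ptgr1 at 0.89 and Fam195a at 1.12. The last was the mitotic kinase gene Nek2 at 0.68, with a log2 fold change of 1.35 in hypoxia and 0.67 in normoxia. With DESeq2 the interaction was called for 246 genes as higher and 228 as lower, so that the predominance of lower calls was not seen there. Hypoxia Trim A replicate 1, which stood apart, and the doubted Normoxia Plus A library both enter this interaction. Without Hypoxia Trim A replicate 1 it was called for 684 genes as higher and 784 as lower. Beyond such leave-outs and the comparison of replicates, no test for single outlying libraries was made.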

How the results depend on the processing

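Among the 99 named genes, 97 kept their call state and direction in hypoxia with DESeq2, 98 without the filter, 93 with all libraries in 1 fit, 91 with all hypoxia libraries in 1 fit, 96 with a replicate block and 99 without the mitochondrial genes. It was 63 at a 2-fold threshold, 41 with the fold tested in the model, 94 without Trim A replicate 1 and 65 to 77 without any 1 of the other 5 libraries. Counts in hypoxia (up and down) were 80 and 26 at a 2-fold threshold, 467 and 190 with no fold threshold, and 26 and 0 with the fold tested in the model (glmTreat, 417 at an unadjusted p below 0.05); DESeq2 gave 369 and 216, no filter 332 and 159, and all libraries in 1 fit 378 and 148. Leaving out 1 library gave 127 to 641 up and 9 to 757 down. In normoxia these were 22 and 12 at 2-fold, 596 and 277 with no fold threshold, 2 and 0 with the fold in the model (191 at an unadjusted p below 0.05), and 27 to 455 and 8 to 138 with 1 library left out. For the interaction, DESeq2 gave 246 higher and 228 lower, no filter 171 and 126, a 2-fold threshold 1 and 13, the fold in the model 0 and 0 (385 at an unadjusted p below 0.05), and leaving out 1 library 0 to 684 and 0 to 784. The cause of these changes was not tested.

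Replicate numbers did not pair the libraries, since deviations of same-numbered libraries correlated at -0.043 to 0.032 in hypoxia and -0.027 to 0.016 in normoxia. With a replicate block the counts were 292 and 106 in hypoxia, 181 and 27 in normoxia, and 156 and 74 for the interaction, and in neither oxygen state did every library correlate best with its own number.

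Genes that were not called changed sign under some settings. Leaving out 1 library gave log2 ranges of -0.038 to 0.103 for Parn, -0.0436 to 0.119 for Pnpt1, -1.32 to 0.0874 for Zswim8, -0.0457 to 0.0409 for Xrn2, -0.435 to 0.0151 for Klf13, -0.0472 to 0.341 for Tnfrsf1b, -0.177 to 0.0226 for Papd7 and -0.215 to 0.559 for Henmt1, and Henmt1 was at -0.00242 with DESeq2 and -0.00219 with all hypoxia libraries in 1 fit.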
